A study of Mus musculus with 9 samples.

Results

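Marker genes of microglia, the resident macrophages of the brain, were examined in cells sorted as oligodendroglia. They were taken by symbol: Tmem119, P2ry12, Cx3cr1, Csf1r, Trem2, C1qa, C1qb, C1qc and Lyz2, 9 of the 11315 genes in the deposited tables, and all 9 had a row. The brain cells came from C57BL/6 mice at postnatal day 60 and were purified by fluorescence-activated sorting with 1 of 3 reporters, with 3 RNA sequencing libraries for each. The labels call PDGFRa::GFP+ cells oligodendrocyte progenitors, PLP::GFP+ cells pre-myelinating oligodendrocytes and NDRG1-eGFP+ cells myelinating oligodendrocytes. The groups are written here as PDGFRa-GFP, PLP-GFP and NDRG1-eGFP. No treatment is named. Whether a replicate is 1 animal or a pool is not in the labels, so p-values reflect only how these libraries vary, which may be technical. A reporter is read out in every cell in which its promoter is active, and the labels name no step that removed microglia.

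Microglia enter the brain early in development and stay there as a self-renewing population that is separate from the oligodendrocyte lineage. They depend on signalling through CSF1R, scan tissue with processes guided by the nucleotide receptor P2RY12, receive neuronal fractalkine through CX3CR1, sense lipids and damage through TREM2, and are the main source of C1q in the brain. TMEM119 separates microglia from most other macrophages, whereas lysozyme, encoded by Lyz2, is shared by macrophages, monocytes and neutrophils. In the white matter of the brain, microglia take up myelin debris and lie among oligodendrocytes.

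Values are normalized log2 values per library, as deposited, so that a difference of 1 is a doubling; the base was inferred from the values. They are not divided by transcript length, and raw counts were not analysed here, so the depth behind a value is unknown. Myelin genes were abundant in every group, the libraries labelled progenitors included. The 15 listed myelin genes summed to 101744 to 117476 ppm of all linear values in the PDGFRa-GFP group, to 111658 to 114054 ppm in the PLP-GFP group and to 122644 to 127531 ppm in the NDRG1-eGFP group. The 9 microglial genes together gave 26.2 to 53.7 ppm in PDGFRa-GFP, 22.2 to 33.5 ppm in PLP-GFP and 75.9 to 120 ppm in NDRG1-eGFP libraries. On the deposited scale 79 of the 81 microglial values lay below the median gene of their library, and the percentiles ran from 2.75 for Trem2 to 62.3 for Lyz2. PDGFRa-GFP replicate 3 stood apart from its group, with Pearson correlations over genes of 0.935 and 0.931 with replicates 1 and 2, which correlated at 0.982 with each other. NDRG1-eGFP replicate 3 was nearly as low with its own group, at 0.939 and 0.946 with replicates 1 and 2, which correlated at 0.964. In bulk libraries of this kind, fewer cells of a type and less RNA per cell cannot be told apart.

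Positions are on the mouse build GRCm38, which mm10 denotes. C1qa, C1qb and C1qc, which encode the A, B and C chains of the complement initiator C1q, sit side by side on the minus strand within 18.7 kb at chr4:136880129-136898803. Tmem119 lies at chr5:113793729-113800516, P2ry12 at chr3:59216272-59262871, Cx3cr1 at chr9:119901616-120069879, Trem2 at chr17:48346401-48354147 and Lyz2 at chr10:117277331-117282321. All are annotated as protein coding in GENCODE M21. The whole of P2ry12 lies inside Med12l on the opposite strand, and 9 of its exonic bases are shared. Csf1r shares 873 exonic bases, 15.1% of its total, with Hmgxb3 on the opposite strand. Of the 50-base windows of Lyz2 transcripts, 15.4% also occur in its close copy Lyz1. Lyz1 had no row. The strand and the handling of repeated matches in the counting are not given in the sources used here, so the values of Csf1r and Lyz2 are uncertain to that extent.

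The sequences upstream of 4 members are shown because results below turn on these members, C1qb and C1qc as neighbours, Trem2 with its partner Tyrobp and Lyz2 with the largest rise, and because macrophage promoters are known for purine-rich boxes bound by the factor PU.1, the product of Spi1, which had no row. Each line gives the bases before the start site, 5′ to 3′ on the strand of the gene, from RefSeq on GRCm38.p6, and only bases outside the annotated gene. Capitals mark GAGGAA and AGGAAG or their complements TTCCTC and CTTCCT, searched on both strands, which overlap in CTTCCTC. The letters were chosen with these sequences in view. C1qb and C1qc are read from the minus strand at chr4:136886201-136886450 and chr4:136893066-136893164, Trem2 from the plus strand at chr17:48346151-48346400, and Lyz2 from the minus strand at chr10:117282322-117282522.
C1qb: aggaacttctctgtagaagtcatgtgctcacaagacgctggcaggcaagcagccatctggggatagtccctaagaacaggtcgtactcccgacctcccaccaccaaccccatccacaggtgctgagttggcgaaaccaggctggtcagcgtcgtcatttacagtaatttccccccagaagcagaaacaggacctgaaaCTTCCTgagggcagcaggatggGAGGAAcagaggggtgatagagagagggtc
C1qc: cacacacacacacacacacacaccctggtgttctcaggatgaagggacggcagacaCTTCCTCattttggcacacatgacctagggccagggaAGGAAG
Trem2: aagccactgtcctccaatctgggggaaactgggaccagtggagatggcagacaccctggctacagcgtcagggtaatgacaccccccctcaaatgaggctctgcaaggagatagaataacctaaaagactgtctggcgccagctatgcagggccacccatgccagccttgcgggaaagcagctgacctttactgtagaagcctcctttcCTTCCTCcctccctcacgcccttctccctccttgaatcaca
Lyz2: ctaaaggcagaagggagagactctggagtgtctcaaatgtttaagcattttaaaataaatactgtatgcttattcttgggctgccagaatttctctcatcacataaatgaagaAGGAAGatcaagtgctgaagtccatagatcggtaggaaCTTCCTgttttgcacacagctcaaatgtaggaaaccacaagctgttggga
Of the 6 members with a 250-base window in the RefSeq table, 5 held at least 1 of these motifs, 3 held GAGGAA and 5 held AGGAAG. Over all 32851 windows, 39.2% held at least 1, 23.3% held GAGGAA and 29.5% held AGGAAG. C1qb carried both, GAGGAA from base 30 and CTTCCT from base 52 before its start. In Trem2 the pair overlapped in a single CTTCCTC, while Lyz2 had AGGAAG and CTTCCT and no GAGGAA. A match describes these letters and is not a bound site. Tmem119, C1qa and Csf1r were not among the entries.

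Tmem119, a transmembrane protein of unclear function that is used to tell microglia from incoming macrophages, kept the 3 groups apart. It stood at 8.38, 8.33 and 8.05 in PDGFRa-GFP libraries, at 7.29, 7.68 and 7.24 in PLP-GFP libraries and at 8.69, 9.16 and 9.15 in NDRG1-eGFP libraries. No library of one group reached another group, with NDRG1-eGFP highest and PLP-GFP lowest. Tmem119 rose 3.03-fold in NDRG1-eGFP against PLP-GFP libraries and held that call in all 20 alternative fits, between 1.21 and 1.75 on the log2 scale.

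P2ry12, the ADP receptor that directs microglial processes toward injury, stood at 8.64, 8.50 and 7.77 in PDGFRa-GFP libraries, at 7.15, 7.96 and 7.24 in PLP-GFP libraries and at 9.57, 8.83 and 9.57 in NDRG1-eGFP libraries. The NDRG1-eGFP libraries were all above the rest, while PLP-GFP replicate 2 lay above PDGFRa-GFP replicate 3. In NDRG1-eGFP against PLP-GFP libraries P2ry12 rose 3.67-fold, with a log2 range of 1.52 to 2.13 over the alternative fits. Med12l, the gene around it, fell by 2.71 in the same comparison (limma adjusted p = 0.0224). Its values were 7.50, 6.65 and 4.98 in PDGFRa-GFP libraries, 7.35, 7.21 and 7.05 in PLP-GFP libraries and 3.70, 3.40 and 6.39 in NDRG1-eGFP libraries.

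Cx3cr1, the receptor for fractalkine, had 8.51, 8.30 and 7.39 in PDGFRa-GFP libraries, 7.09, 7.52 and 6.97 in PLP-GFP libraries and 8.12, 8.22 and 8.76 in NDRG1-eGFP libraries. The NDRG1-eGFP libraries lay above every PLP-GFP library but overlapped the PDGFRa-GFP group. The difference of 1.18 ± 0.34 (log2, SE) between NDRG1-eGFP and PLP-GFP libraries passed with a limma adjusted p of 0.0165. That call was lost without PLP-GFP replicate 3 and without NDRG1-eGFP replicate 3, with limma adjusted p-values of 0.0632 and 0.0619.

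Csf1r, the receptor for the survival factors CSF1 and IL-34, varied more than any other member within the PDGFRa-GFP group. The gene lies on chromosome 18. Its values were 9.84, 10.08 and 7.86 in PDGFRa-GFP libraries, 8.73, 9.62 and 8.88 in PLP-GFP libraries and 10.46, 9.12 and 10.17 in NDRG1-eGFP libraries. All 3 groups overlapped, and PDGFRa-GFP replicate 3 was the lowest of the 9 libraries. The difference of 0.84 ± 0.55 (log2, SE) between NDRG1-eGFP and PLP-GFP libraries gave a limma adjusted p of 0.231, which became 0.049 without PDGFRa-GFP replicate 3. Hmgxb3, which shares exonic bases with it, moved the other way and fell by 0.81 in NDRG1-eGFP against PLP-GFP libraries (limma adjusted p = 0.0121).

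Trem2, a lipid receptor that signals through the adaptor DAP12, was higher in NDRG1-eGFP cells by its values but not by the test against PLP-GFP cells. It stood at 4.81, 6.01 and 5.75 in PDGFRa-GFP libraries, at 6.03, 6.21 and 5.59 in PLP-GFP libraries and at 7.01, 7.11 and 6.97 in NDRG1-eGFP libraries. Every NDRG1-eGFP library was above all 6 others, and those 6 overlapped. The difference of 1.09 ± 0.45 (log2, SE) between NDRG1-eGFP and PLP-GFP libraries was not called, with a limma adjusted p of 0.0663. It was called without PDGFRa-GFP replicate 1 (0.0467) or replicate 3 (0.0495) and in the fit of both groups alone (0.0291), all limma adjusted p-values. With each library's trend on transcript length removed the difference was 0.35, with a limma adjusted p of 0.557.

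The C1q chains were all higher in NDRG1-eGFP than in PLP-GFP libraries. C1qa stood at 7.87, 7.97 and 7.57 in PDGFRa-GFP libraries, at 6.87, 7.34 and 7.17 in PLP-GFP libraries and at 9.33, 7.91 and 8.33 in NDRG1-eGFP libraries. C1qb stood at 7.23, 8.04 and 6.53 in PDGFRa-GFP libraries, at 6.18, 6.56 and 5.75 in PLP-GFP libraries and at 8.92, 7.85 and 8.23 in NDRG1-eGFP libraries. C1qc stood at 8.49, 8.98 and 7.63 in PDGFRa-GFP libraries, at 7.03, 7.12 and 6.75 in PLP-GFP libraries and at 9.67, 8.43 and 9.43 in NDRG1-eGFP libraries. For all 3 chains, every NDRG1-eGFP library was above every PLP-GFP library, NDRG1-eGFP replicate 1 was the highest of the 9 and replicate 2 the lowest of its group. PDGFRa-GFP libraries overlapped NDRG1-eGFP libraries for each chain. The excess of C1qc over C1qb within a library was 0.94 to 1.27 in PDGFRa-GFP, 0.56 to 1.0 in PLP-GFP and 0.58 to 1.2 in NDRG1-eGFP libraries and overlapped between groups. The excess of C1qa over C1qb was -0.07 to 1.05 in PDGFRa-GFP, 0.69 to 1.42 in PLP-GFP and 0.06 to 0.41 in NDRG1-eGFP libraries, without overlap between NDRG1-eGFP and PLP-GFP libraries. In NDRG1-eGFP against PLP-GFP libraries C1qa rose 2.64-fold, C1qb 4.51-fold and C1qc 4.63-fold. Removing each library's trend on transcript length ended the call of C1qa, at 0.66 on the log2 scale and a limma adjusted p of 0.228. It also ended that of C1qb, at 1.44 and 0.0512, and left C1qc called.

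Lyz2, the lysozyme of macrophages and neutrophils, had the largest rise of the 9 members. It stood at 7.33, 6.95 and 7.55 in PDGFRa-GFP libraries, at 7.17, 7.26 and 6.73 in PLP-GFP libraries and at 11.22, 10.82 and 10.21 in NDRG1-eGFP libraries. PDGFRa-GFP and PLP-GFP libraries overlapped, and the lowest NDRG1-eGFP library was above all 6 of them. The rise was 13-fold in NDRG1-eGFP against PLP-GFP libraries (limma adjusted p = 1.34e-05) and 11.1-fold in NDRG1-eGFP against PDGFRa-GFP libraries (limma adjusted p = 2.4e-05). Of the members' summed linear values, Lyz2 made up 3.75% to 11.7% in the PDGFRa-GFP group, 7.48% to 10.4% in the PLP-GFP group and 21.4% to 39% in the NDRG1-eGFP group. Without Lyz2 the other 8 members summed to 23.2 to 51.7, 20.3 to 31.0 and 46.4 to 80.7 ppm in PDGFRa-GFP, PLP-GFP and NDRG1-eGFP libraries, and the NDRG1-eGFP range then overlapped the PDGFRa-GFP range.

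**Figure D1:**
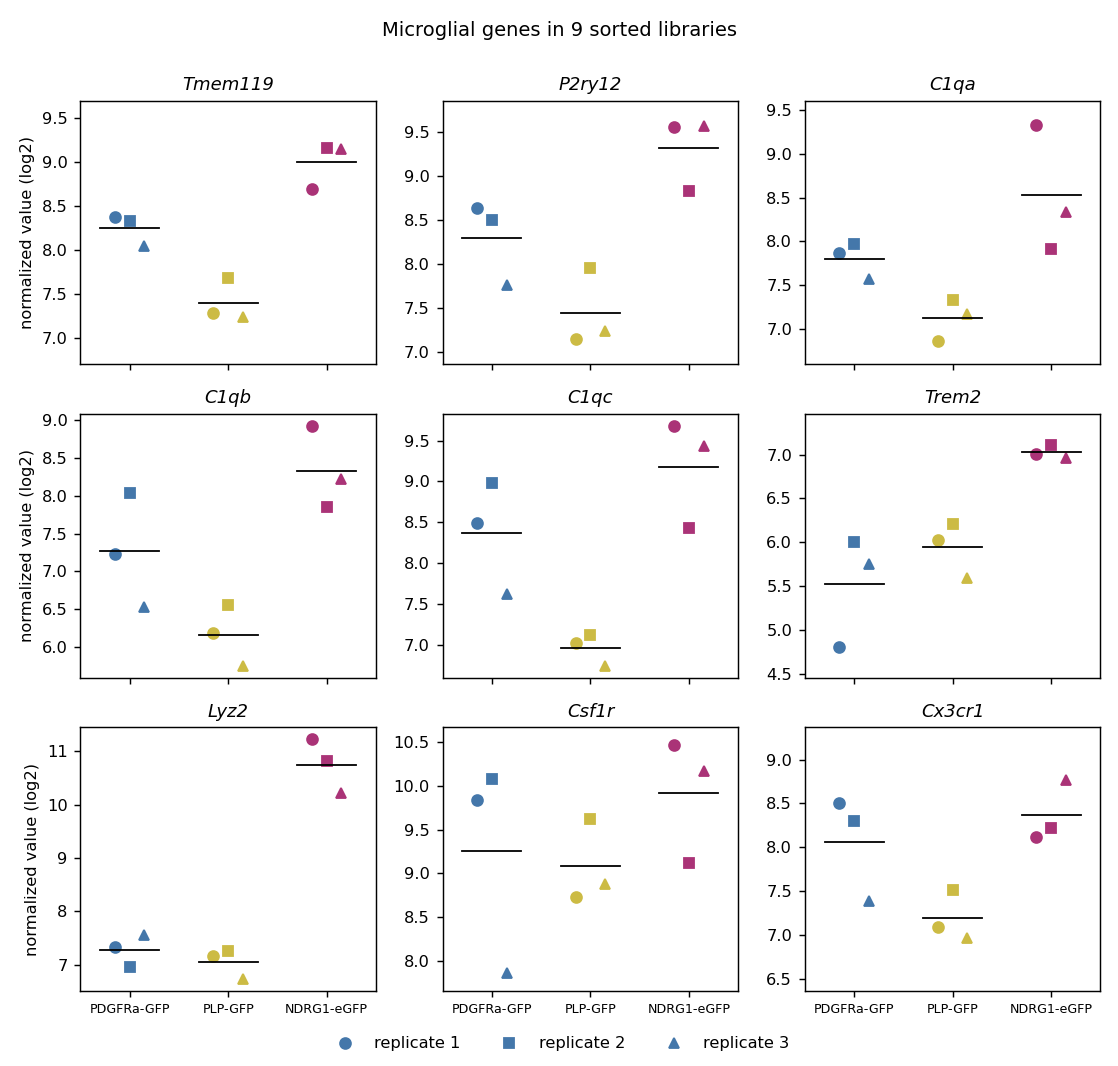
Normalized log2 value of the 9 microglial genes in each library, 1 panel per gene with its own vertical axis; groups run along the horizontal axis, symbols give the replicate and the bar is the mean of 3 libraries. Every gene but Csf1r had all NDRG1-eGFP libraries above all PLP-GFP libraries, and the mean of Lyz2 was 7.06 in PLP-GFP and 7.28 in PDGFRa-GFP libraries.

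Levels of different genes can be set beside each other only per length, taken here as the mean log2 value per kilobase of transcript. In NDRG1-eGFP libraries Lyz2 came first at 10.36, followed by C1qc at 8.91, C1qa at 8.47, C1qb at 8.21, P2ry12 at 8.09, Tmem119 at 7.84, Csf1r at 7.68, Trem2 at 6.91 and Cx3cr1 at 6.20. Neighbours from C1qc down to Csf1r in that order lay closer together than the larger SD of the pair, whereas Lyz2 was farther from C1qc than the SD of either, 0.51 and 0.66. In PLP-GFP libraries C1qa was first at 7.07, Lyz2 came after Csf1r and C1qc at 6.66, and Cx3cr1 was last at 5.02. There the neighbours Lyz2 and Tmem119, and Trem2 and Cx3cr1, were apart by more than either SD, and the other neighbours were not. In PDGFRa-GFP libraries C1qc was first at 8.10, Lyz2 stood above only Cx3cr1 and Trem2 at 6.88, and Trem2 was last at 5.40. Lyz2 and Cx3cr1 were the only neighbours there farther apart than either SD. The SD of a member ran from 0.07 for Trem2 in NDRG1-eGFP to 1.22 for Csf1r in PDGFRa-GFP libraries.

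Most members were higher in NDRG1-eGFP cells when set against PLP-GFP cells. A gene was called at an adjusted p under 0.05 from limma, fitted over all 9 libraries and adjusted over all 11315 genes. All 9 estimates were above 0 and 7 of 9 members rose, against 26.1% of all genes called higher. With no estimate below 0 none fell, against 22.2% of all genes called lower. The median member difference was 1.60, beside 0.08 over all genes. Every NDRG1-eGFP library was above every PLP-GFP library for 8 of 9 members, against 36.6% of all genes. The estimates (log2, SE) were 1.60 ± 0.24 for Tmem119, 1.88 ± 0.34 for P2ry12, 1.40 ± 0.36 for C1qa, 2.17 ± 0.44 for C1qb, 2.21 ± 0.40 for C1qc and 3.70 ± 0.30 for Lyz2. The limma adjusted p was 0.000593 for Tmem119, 0.00143 for P2ry12, 0.00891 for C1qa, 0.00292 for C1qb and 0.00148 for C1qc. Leaving out each library in turn gave 6 to 9 members called, 9 of them without PDGFRa-GFP replicate 3. That fit left each member's estimate in this comparison unchanged. It called 6908 of the 11315 genes in either direction, against 5460 with all libraries in. With each library's trend on transcript length removed, 5 members and 3426 of 11272 genes were called. An exact permutation test of 1 gene over 3 and 3 libraries cannot go below p = 0.1, so none was used.

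PLP-GFP cells had lower estimates than PDGFRa-GFP cells for 8 of 9 members, but few passed. The members called lower were Tmem119, at -0.85 ± 0.24, and C1qc, at -1.40 ± 0.40 (log2, SE), with limma adjusted p-values of 0.0383 and 0.0382. These are 2 of 9 members, against 8.53% of all genes called lower. For Tmem119, C1qa and C1qc every PLP-GFP library was below every PDGFRa-GFP library, 3 of 9 members against 20.0% of all genes. The remaining estimates were -0.86 ± 0.34 for P2ry12, -0.87 ± 0.34 for Cx3cr1, -1.10 ± 0.44 for C1qb, -0.68 ± 0.36 for C1qa, -0.22 ± 0.30 for Lyz2 and -0.18 ± 0.55 for Csf1r. Trem2 alone had a positive estimate, 0.42 ± 0.45. The median member difference was -0.85, beside 0.03 over all genes. The count turned on single libraries: it was 5 without PDGFRa-GFP replicate 3, when P2ry12, C1qb and Cx3cr1 were added, 1 without NDRG1-eGFP replicate 2, and 0 without PDGFRa-GFP replicate 1 or 2, without any 1 of the PLP-GFP libraries, or without NDRG1-eGFP replicate 3.

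NDRG1-eGFP against PDGFRa-GFP cells left 2 members called higher, Lyz2 and Trem2, against 10.7% of all genes. Trem2 rose 2.84-fold, with a limma adjusted p of 0.037, and lost that call in 7 of 9 fits that left out 1 library, namely without PDGFRa-GFP replicate 1, without any 1 PLP-GFP library and without any 1 NDRG1-eGFP library. Recentring the libraries lowered the median of all genes from 0.14 to 0.04 and also ended it, with a limma adjusted p of 0.0516. So did the replicate block (0.0759), the fit of both groups alone (0.0927) and removing the length trend (0.0712), all limma adjusted p-values. Tmem119, P2ry12, Trem2 and Lyz2 had every NDRG1-eGFP library above every PDGFRa-GFP library, 4 of 9 members against 21.0% of all genes. Estimates for the others were 0.75 ± 0.24 for Tmem119, 1.02 ± 0.34 for P2ry12, 0.30 ± 0.34 for Cx3cr1, 0.66 ± 0.55 for Csf1r, 0.72 ± 0.36 for C1qa, 1.07 ± 0.44 for C1qb and 0.81 ± 0.40 for C1qc. The limma adjusted p was 0.0506 for Tmem119 and 0.054 for P2ry12, just above the threshold. The 3 comparisons share libraries, so their estimates are not independent.

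**Figure D2:**
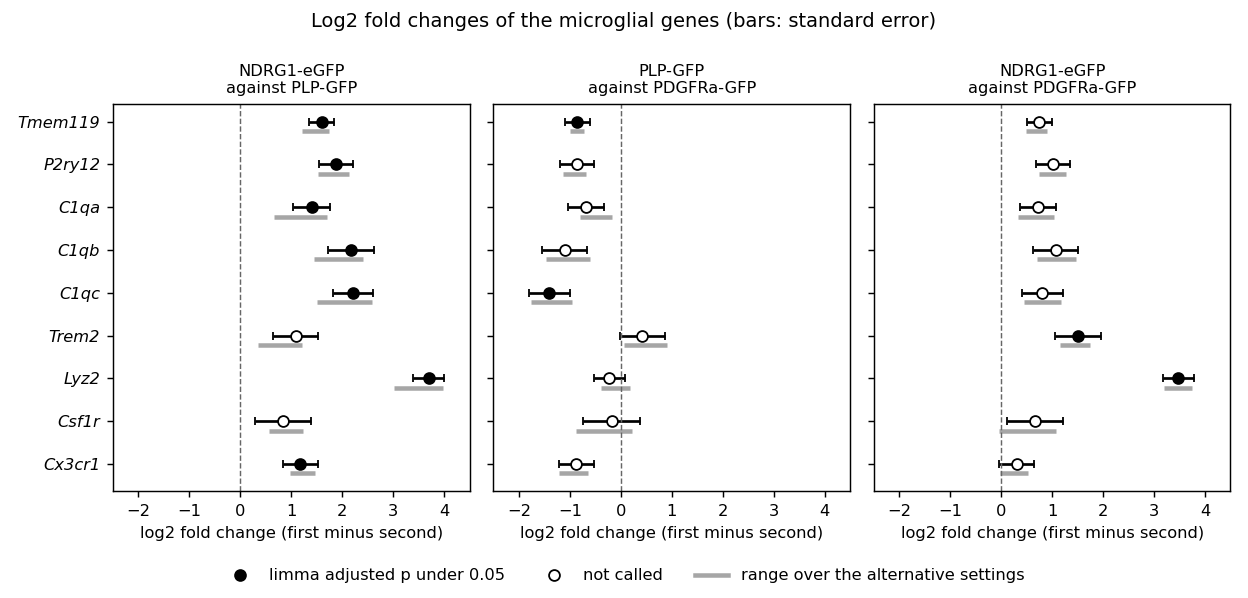
Log2 fold change of each microglial gene (horizontal axis, first group minus second) in the 3 comparisons; bars are standard errors, filled points have a limma adjusted p under 0.05 and grey lines span the alternative fits. In the NDRG1-eGFP against PLP-GFP panel 7 points are filled and all lie right of 0, with Lyz2 farthest at 3.70.

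Within a group, many members had their lowest or highest value in the same library. The matching shares over all genes were not computed, so these counts cannot be read as a trait of the members. PDGFRa-GFP replicate 3 was the lowest of its group for 7 of 9 members, all but Trem2 and Lyz2. PLP-GFP replicate 2 was the highest of its group for all 9, and replicate 3 the lowest for 6. NDRG1-eGFP replicate 2 was the lowest of its group for 5 members, Csf1r, P2ry12 and the C1q chains, and the highest for Tmem119 and Trem2. The mean of the members, each centred on its own mean, was -0.06, 0.17 and -0.62 in PDGFRa-GFP libraries, -0.90, -0.49 and -1.04 in PLP-GFP libraries and 1.26, 0.65 and 1.02 in NDRG1-eGFP libraries. P2ry12 came closest to this profile, with a root-mean-square difference of 0.18 over the 9 libraries, and Lyz2 was farthest, at 1.10. The 5 genes outside the members nearest to it were Fbxl2 at 0.14, Top1mt at 0.22, Ptk2b at 0.22, Tspan17 at 0.23 and Slc38a3 at 0.23, where the median over the other genes was 0.85. Fbxl2, the nearest, stood at 8.32, 8.21 and 7.50 in PDGFRa-GFP libraries, at 7.34, 7.59 and 7.41 in PLP-GFP libraries and at 9.56, 8.73 and 9.37 in NDRG1-eGFP libraries.

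Molecules that work with TREM2 and CSF1R rose in part. Of 15 listed genes 9 had a row, and in NDRG1-eGFP against PLP-GFP libraries 4 rose and 1 fell, with a median of 0.45. Over all genes 26.1% were called higher and 22.2% lower. Tyrobp, which encodes the DAP12 adaptor of TREM2, stood at 6.26, 6.98 and 6.95 in PDGFRa-GFP libraries, at 6.05, 6.03 and 5.38 in PLP-GFP libraries and at 8.83, 7.81 and 7.59 in NDRG1-eGFP libraries. Each NDRG1-eGFP library was above all others, and the limma adjusted p was 0.00187 against PLP-GFP and 0.0465 against PDGFRa-GFP libraries. Syk, the kinase recruited by DAP12, and Plcg2, a phospholipase acting after it, were picked out after their values were seen. Syk was higher by 1.51 against PLP-GFP and by 1.83 against PDGFRa-GFP libraries, and Plcg2 by 1.16 and 1.52 (log2, limma adjusted p = 0.0459, 0.0417, 0.0201 and 0.0142). Lyn and Pik3cd of the same list were not called in either comparison. Lyn was at 0.45 and 1.43, and Pik3cd at -0.92 and -0.20 (log2, limma adjusted p = 0.488, 0.0702, 0.183 and 0.811). Clu, which encodes the lipid carrier clusterin, rose by 1.14 against PLP-GFP libraries. The adaptor gene Grb2 fell by 0.60. The ligand gene Csf1 lay between 12.22 and 13.50 in all libraries, and its difference of -0.10 ± 0.28 between NDRG1-eGFP and PLP-GFP libraries was not called. Il34 had no row. Apoe, which encodes a lipoprotein bound by TREM2, was not called between NDRG1-eGFP and PLP-GFP libraries, at 0.10 ± 0.16, and fell by 0.58 in PLP-GFP against PDGFRa-GFP libraries (limma adjusted p = 0.0366).

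Of 12 listed ligand and signalling genes of P2RY12 and CX3CR1 9 had a row and 2 rose in NDRG1-eGFP against PLP-GFP libraries, the ATP-gated channel gene P2rx4 by 0.61 and the inhibitory G protein gene Gnai2 by 0.45, with a list median of 0.01. Over all genes tested 26.1% were called higher in this comparison. Cx3cl1, which encodes fractalkine, had 7.09, 6.51 and 5.90 in PDGFRa-GFP libraries, 5.47, 5.28 and 5.48 in PLP-GFP libraries and 5.85, 6.75 and 8.18 in NDRG1-eGFP libraries. NDRG1-eGFP libraries lay above PLP-GFP libraries, and the difference of 1.52 ± 0.59 had a limma adjusted p of 0.0545.

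Complement genes other than C1q were represented by 9 of 21 listed genes, and C3 had no row. In NDRG1-eGFP against PLP-GFP libraries 4 rose, against 26.1% of all genes called higher, and the median was 1.30. The named ones encode inhibitors of the cascade: Serping1, the C1 inhibitor, by 3.60, Cd55 by 2.41 and Cd59a by 1.84. C4b, the component cleaved after C1q binds, stood at 11.94, 11.45 and 10.90 in PDGFRa-GFP libraries, at 8.80, 9.22 and 9.52 in PLP-GFP libraries and at 9.47, 9.67 and 10.49 in NDRG1-eGFP libraries. Its highest group was PDGFRa-GFP, unlike that of the C1q chains, and it fell by 1.55 in NDRG1-eGFP against PDGFRa-GFP libraries (limma adjusted p = 0.00891).

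**Figure D3:**
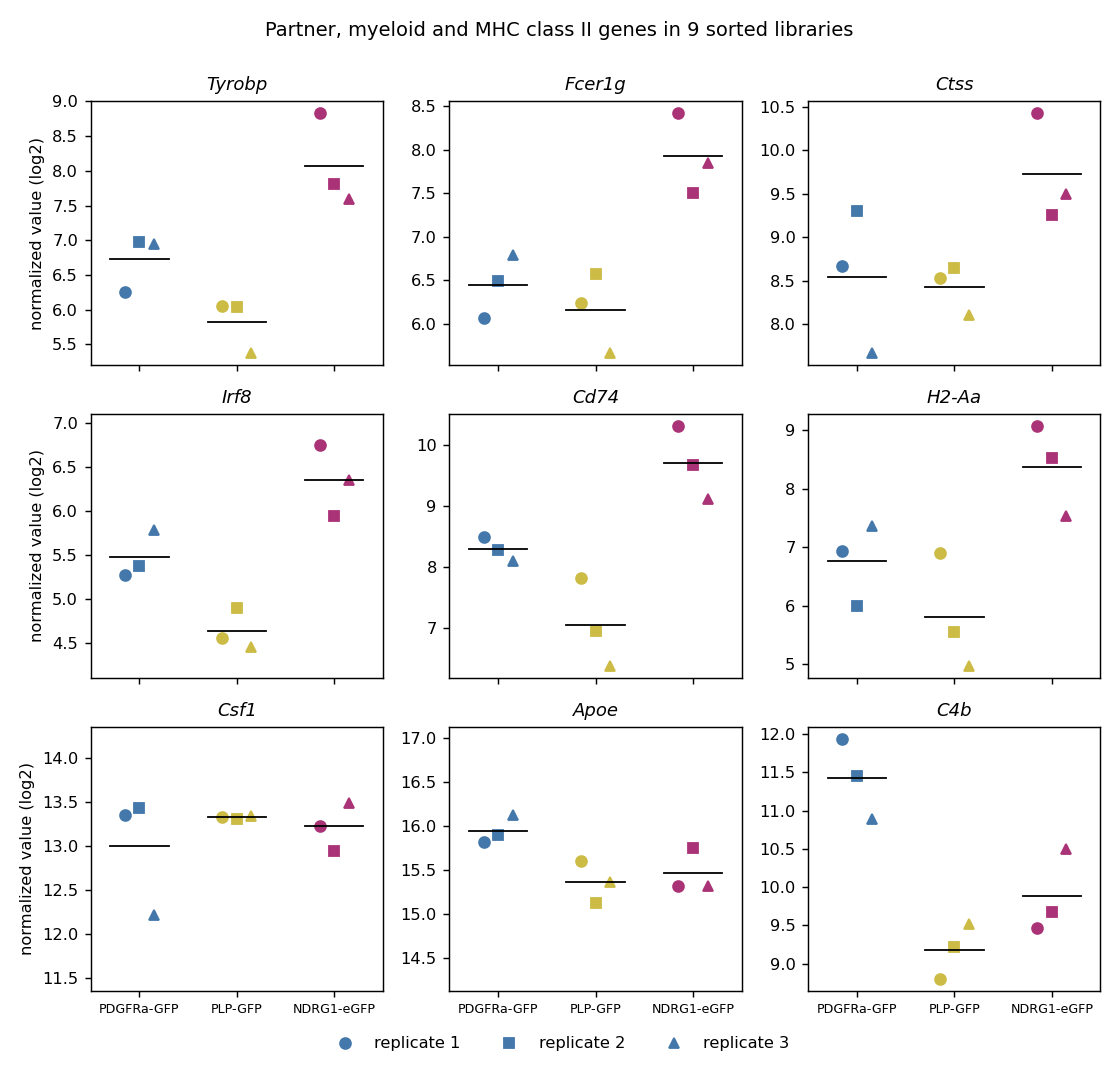
Normalized log2 value of 9 genes that work with the members or mark myeloid cells, in each library; symbols give the replicate, bars the mean of 3 libraries, and each panel has its own vertical axis. Tyrobp and Cd74 had every NDRG1-eGFP library above all others, Csf1 overlapped between groups and C4b was highest in PDGFRa-GFP libraries.

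Further genes of microglia moved in both directions. Of 18 listed, 15 had a row, the common marker Aif1 had none, and the lowest measured value was 2.46, for Mertk in NDRG1-eGFP replicate 2. In NDRG1-eGFP against PLP-GFP libraries 6 rose and 2 fell, with a median of 0.80. For this list and those below, the shares over all genes were 26.1% called higher and 22.2% called lower. Sparc, a matrix protein gene, rose by 1.09. The transcription factor gene Sall1 fell by 0.94 and the receptor gene Tgfbr1 by 1.23 (limma adjusted p = 0.000648 and 0.00035). Itgam, the integrin subunit CD11b, was not called, at 0.12 ± 0.53. Of 24 genes of myeloid cells in general 16 had a row and 13 rose, with a median of 1.57. Unc93b1, a Toll-like receptor chaperone gene, rose by 1.24, Arhgdib by 3.09 and the cathepsin gene Ctsz by 0.78. Fcer1g, which encodes an Fc receptor chain, rose by 1.76 and Ctss, a cathepsin gene, by 1.30. Ptprc, which encodes the leukocyte marker CD45, stood at 4.96, 4.89 and 6.17 in PDGFRa-GFP libraries, at 6.40, 6.36 and 4.88 in PLP-GFP libraries and at 6.86, 5.75 and 6.24 in NDRG1-eGFP libraries. Those groups overlapped, and the difference of 0.40 ± 0.61 between NDRG1-eGFP and PLP-GFP libraries was not called. Among 14 myeloid transcription factor genes 8 had a row, 2 rose and 2 fell, with a median of 0.05. Irf8, a factor of the myeloid lineage, rose by 1.71. Of 16 genes of disease-associated microglia 11 had a row and 4 rose, with a median of 0.10.

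Genes of other brain macrophages and of monocytes were higher in part in the NDRG1-eGFP libraries, where Lyz2 was high. Of 20 listed 11 had a row, and 4 rose in NDRG1-eGFP against PLP-GFP and 4 in NDRG1-eGFP against PDGFRa-GFP libraries, with medians of 1.99 and 2.05. Over all genes 26.1% and 10.7% were called higher in these comparisons. The 4 called against PLP-GFP libraries all belong to MHC class II antigen presentation. Cd74, the class II invariant chain, stood at 8.50, 8.28 and 8.11 in PDGFRa-GFP libraries, at 7.83, 6.95 and 6.39 in PLP-GFP libraries and at 10.32, 9.68 and 9.11 in NDRG1-eGFP libraries. H2-Aa rose by 2.56 and H2-Ab1 by 2.43 against PLP-GFP libraries. Called against PDGFRa-GFP libraries, and picked out after their values were seen, were F13a1 at 2.90 and Ccr2, a monocyte chemokine receptor, at 4.53, beside Cd74 and H2-Ab1. F13a1 was at 4.21, 5.28 and 1.80 in PDGFRa-GFP libraries (SD 1.78), and its value in replicate 3 was the same as that of Ccr2 there. Ccr2 was at 0.35, 1.42 and 1.80 in PDGFRa-GFP libraries, close to the lowest values in the tables. Mrc1, which marks border macrophages, ranged from 1.80 to 7.21 over the 9 libraries and was not called in any comparison. The summed level of this list was 11.0 to 16.6, 6.59 to 13.7 and 27.1 to 68.5 ppm in PDGFRa-GFP, PLP-GFP and NDRG1-eGFP libraries. The highest gene in that sum was a class II gene in every library, H2-Ab1 in NDRG1-eGFP replicate 1 and Cd74 elsewhere. The sum is therefore not a level of border macrophage or monocyte markers alone. The part of this list in the Lyz2 result was not tested. Of 9 lymphocyte genes none had a row.

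Other lists moved between the same groups as the members. Fibroblast-like genes, 10 of 12 with a row, summed to 149 to 291 ppm in the PDGFRa-GFP group, to 5.25 to 9.43 ppm in the PLP-GFP group and to 74.9 to 240 ppm in the NDRG1-eGFP group. In NDRG1-eGFP against PLP-GFP libraries 9 rose, with a median of 4.45, and in PLP-GFP against PDGFRa-GFP libraries 9 fell. Over all genes 26.1% were called higher in the former comparison and 8.53% lower in the latter. Immediate early genes, 24 of 24, summed to 967 to 4685 ppm in the PDGFRa-GFP group, to 629 to 848 ppm in the PLP-GFP group and to 1161 to 5072 ppm in the NDRG1-eGFP group, and 17 rose in NDRG1-eGFP against PLP-GFP libraries. The lowest immediate early median within PDGFRa-GFP was in replicate 3, at 9.08 beside 12.23 and 11.88, and within NDRG1-eGFP in replicate 2, at 9.70 beside 11.50 and 12.07. Those are the libraries in which most members were lowest within their group. Both were left out in an alternative chosen after the data were seen. In NDRG1-eGFP against PLP-GFP libraries 8 members were then called higher, while 6426 of all 11315 genes were called in either direction, against 5460 before. In PLP-GFP against PDGFRa-GFP libraries 6 members were called lower, while 2891 of all genes were called in either direction, against 1922 before. Because these libraries held the lowest values of most members, leaving them out tends to widen both differences by itself. In NDRG1-eGFP against PLP-GFP libraries the 8 neuron genes with a row had a median of 0.06 and the 3 pericyte genes one of -0.48. Of 14 astrocyte genes 2 rose and 1 fell, of 12 progenitor genes with a row 2 rose and 1 fell, of 15 myelin genes 5 rose and 2 fell, and of 3 endothelial genes 1 rose. All genes called higher in that comparison made up 26.1%, and those called lower 22.2%. The part of fibroblast-like and immediate early genes in the members' differences was not tested.

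**Figure D4:**
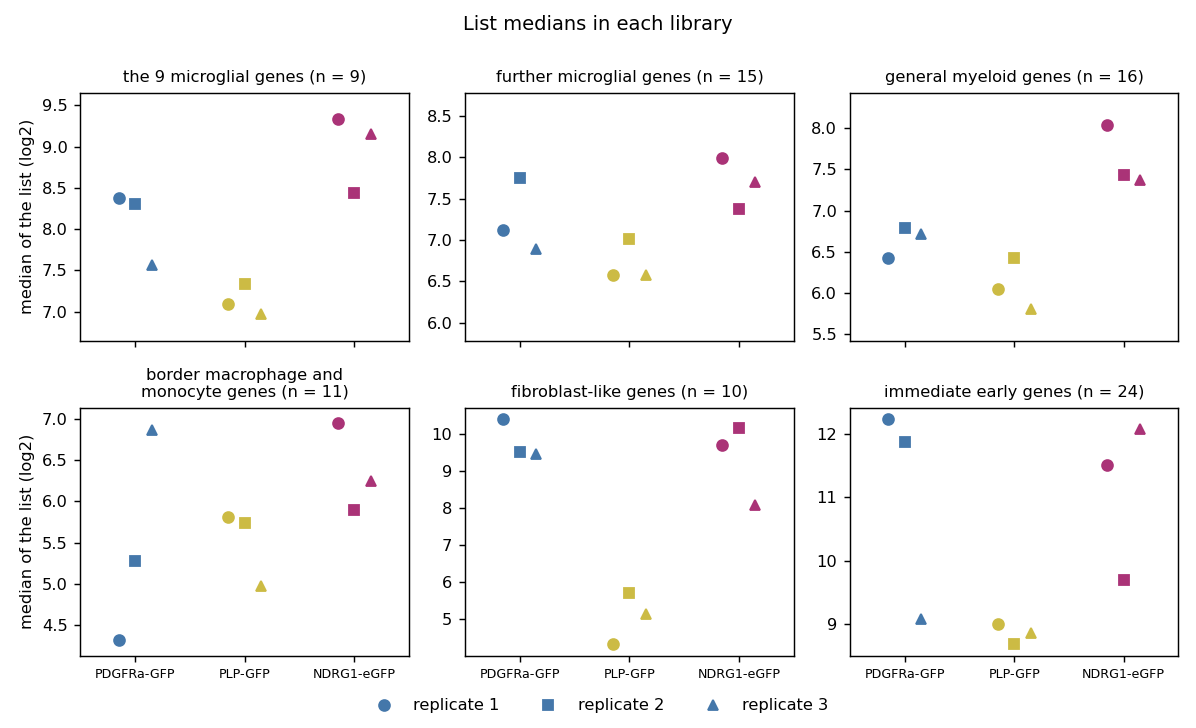
Median normalized log2 value of 6 gene lists in each library, 1 panel per list with its own vertical axis; n is the number of listed genes with a row and symbols give the replicate. All 6 lists had every NDRG1-eGFP median above every PLP-GFP median. The border macrophage median reached 6.87 in PDGFRa-GFP replicate 3.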

How the data were processed

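RNA was sequenced from 9 sorted mouse brain libraries, 3 per reporter group. BWA, DESeq2 1.2.5 and the build mm10 are listed in the submitters' processing notes, without roles. Each deposited file holds a gene symbol and a normalized value for 11315 genes, per the file headers. The values had been put on a log scale by the authors, taken here as log2 because their powers of 2 add up to the scale of a read total. Those totals were alike in every library, but with shared values this would hold for any base. The libraries share almost the same set of values in different gene orders, a trait of quantile normalization, so a value carries rank more than amount. Counting depth is unknown, and tests for counts were not used.

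limma-trend (limma 3.58.1, R 4.3.3) was fitted to the deposited log2 values with a term per group over all 9 libraries. The filter, a minimum of 1 in 3 or more libraries, removed no gene. P-values were two-sided, and the Benjamini-Hochberg adjustment ran across the 11315 genes, with 0.05 as threshold. The fit was tested on simulated data. Differences are first group minus second, with the SE of the fit.

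The members and gene lists were chosen with earlier results of these data known. The text names all members, up to 3 genes per list with the smallest adjusted p between NDRG1-eGFP and PLP-GFP, listed partners of the members, and the 5 nearest profiles, passing over predicted genes. Lists are described by counts and medians and were not tested as sets. Annotation came from GENCODE M21, which gave a transcript length for 11272 genes, and upstream sequence from RefSeq. Alternatives were recentring, added constants, a filter at a mean of 8, no filter, the replicate number as a block, a fit limited to the pair of groups, removal of a lowess trend on transcript length, robust empirical Bayes, a threshold of 0.01, and leaving out libraries.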

Additional observations from a re-analysis of the deposited data

How the results depend on the processing

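Over 20 alternatives, 466 values of single genes kept their direction and side of the threshold, 39 lost a call and 18 gained one. No filter repeated the main fit, and the threshold of 0.01 was applied to the main fit. The members called higher in NDRG1-eGFP against PLP-GFP libraries numbered 7, and 6 to 9 when each library was left out. With the length trend removed 5 were called, since C1qa and C1qb lost their calls. With a mean of at least 8 only 5 members remained in the test and 4 were called. The genes called among all were 5460, against 3426 with the length trend removed, 3526 at an adjusted p under 0.01 and 3961 to 6908 without single libraries. In PLP-GFP against PDGFRa-GFP libraries 2 members were called lower, against 0 with the replicate block, with only the 2 groups compared, with the length trend removed or at 0.01, 6 with PDGFRa-GFP 3 and NDRG1-eGFP 2 left out together, and 0 to 5 without single libraries. All genes called there were 1922, against 722 with the replicate block, 1066 with only the 2 groups, 886 with the length trend removed, 292 at 0.01, 2891 with those libraries out and 278 to 2789 without single libraries. In NDRG1-eGFP against PDGFRa-GFP libraries 2 members were called higher, against 1 after recentring, with the replicate block, with only the 2 groups, with the length trend removed or at 0.01, and 1 to 2 without single libraries. All genes called were 2383, against 1321 with the replicate block, 1042 with only the 2 groups, 899 at 0.01, 3891 with those libraries out and 1316 to 4621 without single libraries. The cause of these shifts was not tested. Signs turned for Lyz2 in PLP-GFP against PDGFRa-GFP libraries, at 0.18 with the length trend removed, and for Csf1r there, at 0.11 and 0.23 without PDGFRa-GFP replicate 1 and 2. Leaving out single libraries moved Csf1r between -0.88 and 0.23 there, and in NDRG1-eGFP against PDGFRa-GFP libraries it moved Csf1r between -0.042 and 1.07 and Cx3cr1 between -0.035 and 0.52, both lowest without PDGFRa-GFP replicate 3. None of the values of turned sign was called. Libraries with the same replicate number showed no broad shared deviation: over 9 such pairs the correlation of deviations ran from -0.23 to 0.09. The labels do not say whether a number marks anything shared, and these correlations cannot settle it. What the replicate block compares is therefore unknown. Values without counts set no limit on depth; over the 81 member values, the number of distinct values below a member in its own library was 23 at the fewest, with a median of 174.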
